A study of Mus musculus with 32 samples.

Results

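Serine/threonine protein phosphatases remove phosphate groups that protein kinases have placed on serine and threonine residues. The genes described here were chosen by symbol: the catalytic and regulatory subunit genes of the families Ppp1 to Ppp6 and the Ppm1 genes, without Ppp1r1b. The array carried 96 probes for them, of 25697 in all, and these probes covered 60 of 18138 gene symbols. Of the 96 probes, 66 probes of 45 genes were detected often enough to be tested, among 10187 tested probes of 7926 genes.

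The catalytic subunits PP1 and PP2A account for much of the phosphatase activity of the brain and act through many interchangeable regulatory subunits, which direct them to their targets. Calcineurin, the product of the Ppp3 genes, is switched on by calcium and calmodulin and weakens synapses by removing phosphate from receptors and from other phosphatase regulators. The Ppm1 enzymes depend on magnesium or manganese, have no such exchangeable subunits, and counter stress-activated and other kinases.

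The samples were frontal cortex (FCtx) of mice of the cross labelled C57BL/6J x FVB/NJ F1, which the Methods describe as female and from reciprocal crosses. The ethanol-treated group was 20 mice that could drink 20% ethanol or water in a short session of each dark phase over 20 days, and the control group was 12 mice described as matched. Each mouse gave 1 Illumina MouseRef-8 v2.0 array, and the arrays lay on 4 chips of 8. The 16 arrays of chips 1 and 2 were of ethanol-treated mice and the 8 of chip 4 of controls, so that chip and treatment cannot be told apart among them. Chip 3 held 4 ethanol-treated mice at odd positions and 4 controls at even positions, so that position and treatment cannot be told apart there. The Methods say that every RNA extraction batch held both groups, and the labels do not tie the arrays to batches. Of their age, the sources used here say only that the mice drank as young adults.

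Between 9480 and 11544 probes were detected per array, and the arrays correlated with each other at r from 0.9701 to 0.9936 over 496 pairs. The tested phosphatase probes were read by 14 to 66 beads (median 39), and the typical (median) SD between mice of a group was 0.145 in log2 units, both for these probes and for all tested probes. Of the genes marking cortical excitatory neurons, 4 were tested here, and their mean level ran from 9.62 to 9.93 per ethanol-treated mouse and from 9.77 to 10.14 per control. In bulk tissue, fewer cells of a type and less RNA per cell cannot be told apart. Precision is limited by the number of arrays.

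Genes with no tested probe were Ppm1h, Ppm1j, Ppp1r12c, Ppp1r13l, Ppp1r14c, Ppp1r14d, Ppp1r15b, Ppp1r16b, Ppp1r1c, Ppp1r3a, Ppp1r3b, Ppp1r7, Ppp2cz, Ppp2r1b and Ppp4r2. Their probes were detected on between 0 and 19 of the 32 arrays. The array's annotation gives Ppp2cz and Ppm1j the same transcript, so these symbols do not stand for separate genes there. All families had at least 1 tested catalytic subunit, and the largest share of undetected probes was among the PP1 regulators, where 13 of 28 probes were tested.

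Over all arrays, 25 phosphatase probes of 19 genes differed between ethanol-treated mice and controls at a false discovery rate (FDR) below 10% (limma, Benjamini-Hochberg over all tested probes). That was 37.9% of the tested members, and 25.4% of all tested probes were called at this rate. Of the members, 17 were higher in ethanol-treated mice (25.8%, against 11.9% of all probes) and 8 were lower (12.1%, against 13.5%). The 17 higher probes belonged to 11 genes and the 8 lower probes to 8 genes, so that some genes count more than once among the higher. At an FDR below 1%, 6 members were called, 4 higher and 2 lower, beside 8.01% of all probes (3.57% higher and 4.44% lower). Of the 4, the Ppp3ca probe at base 254 was detected on 20 ethanol arrays but only 7 control arrays. It passed the filter through the group in which it was higher, so its call is no support for a rise. The median change of the 66 members was 0.04 on the log2 scale, with 44 of them above 0 (66.7%), and that of all tested probes was -0.00 with 48.4% above 0. Chip and treatment coincide on 24 of the 32 arrays, and the calls depended on how chip was treated. With chip as a random block (correlation 0.116), 7 of the 25 remained called by limma: Ppm1k, Ppm1m, Ppp1r10 (base 3892), Ppp2r2c (3606), Ppp3ca (254, with the limit just given), Ppp4r1 (2610) and Ppp4r4 (3370). With chip as a fixed block 2 did, Ppp1r10 and Ppp4r4 at these bases, and with odd or even position added 0 did. The share of all tested probes called with the random block is not given here. The count of 7 therefore does not compare the members with the whole array. The gene-by-gene calls over all arrays given below are those without chip in the fit. When arrays were scaled by their median instead of by quantiles, 0 members were lower at an FDR below 10%, and the share of higher calls among all called probes moved from 47% to 90.3%.

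**Figure D1:**
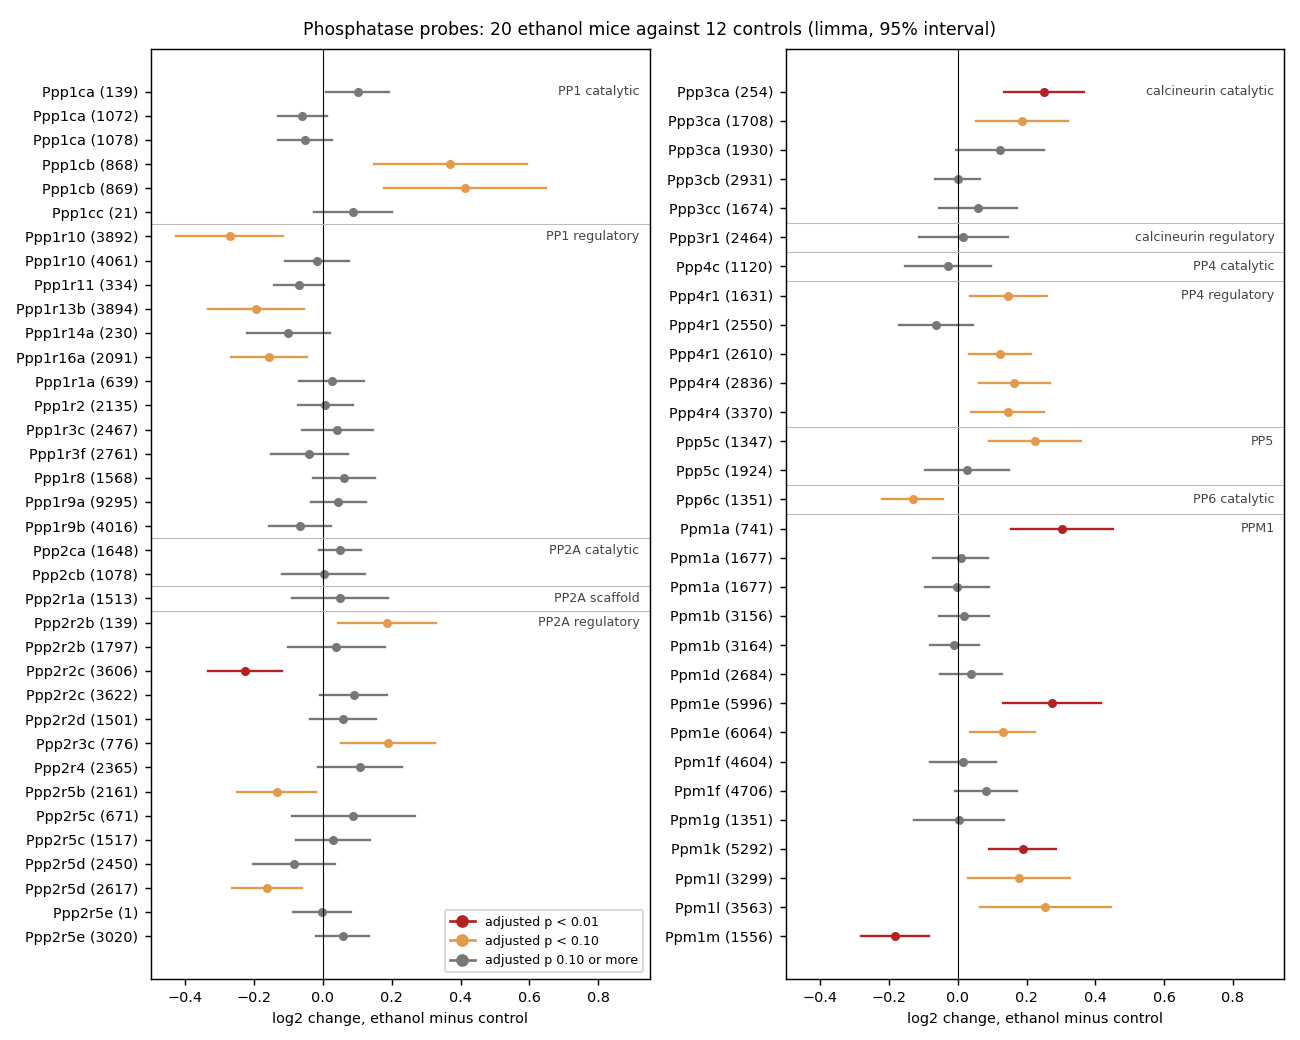
The points are the log2 change of each tested phosphatase probe, ethanol-treated minus control, with the 95% interval by limma over 20 and 12 arrays, grouped by subunit role. Each label gives the gene and, in parentheses, the first base of the probe in its transcript. The largest increases are the pair of Ppp1cb probes at 0.37 and 0.41, and the largest decrease is Ppp1r10 (3892) at -0.27.

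Among the PP1 catalytic subunits, Ppp1cb, which encodes the beta isoform found in myosin phosphatase, was higher in ethanol-treated mice and its relatives Ppp1ca and Ppp1cc were not called. Ppp1cb has a pair of tested probes that overlap in all but 1 base, and another probe further upstream, at base 775, was detected on 0 arrays. The first 30 of the 50 bases of each are shown because the gene's change rests on this overlap, with the bases that the overlapping probes share within the stretch in capitals.
Ppp1cb probe at base 775: ggagctgatgtagtcagtaaatttctgaat
Ppp1cb probe at base 868: gCTAAACGACAGTTGGTAACCTTATTTTCT
Ppp1cb probe at base 869: CTAAACGACAGTTGGTAACCTTATTTTCTg
The probes at bases 775 and 869 are placed by the array's annotation on chromosome 5, at 32788340 to 32788389 and at 32789972 to 32790021, with no genome build named. Only 8.62% of 18372 placed probes of the array fall inside their own gene in GRCm38.p6, so these positions belong to another build.

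At base 869, the normalized log2 values ran from 9.62 through a median of 10.20 to 10.63 in ethanol-treated mice and from 8.93 through 9.75 to 10.43 in controls. The groups overlapped, yet 19 of 20 ethanol-treated mice lay above the control median and 4 of 12 controls lay below every ethanol-treated mouse. The change was 0.41 ± 0.12 (SE, 20 and 12 mice; adjusted p = 0.0118, limma), and it was 0.37 ± 0.11 at base 868 (adjusted p = 0.0168). The 8 controls of chip 4 ran from 8.93 to 10.10 around a median of 9.59, whereas the 16 ethanol-treated mice of chips 1 and 2 ran from 9.62 to 10.63, a difference of 0.70 ± 0.11 (adjusted p = 5.71e-05 by limma). On chip 3 the ethanol-treated mice read 10.045, 9.997, 10.059 and 10.433 and the controls 10.430, 10.348, 10.284 and 10.241. Of the ethanol-treated mice there, 1 lay above every control and 3 lay below every control, and the change was -0.19 ± 0.09 (adjusted p = 0.196, limma). At base 868 the change was 0.01 on chip 3 and 0.59 on the other chips, so the overlapping probes did not share a fall on chip 3.

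Ppp1ca, the alpha isoform, had 3 tested probes with changes of 0.10 ± 0.05 at base 139, -0.06 ± 0.04 at base 1072 and -0.05 ± 0.04 at base 1078. None passed an FDR of 10% (limma adjusted p = 0.116, 0.241 and 0.369). At base 139, values ran from 11.80 through 12.04 to 12.26 in ethanol-treated mice and from 11.67 through 11.96 to 12.04 in controls, and 12 of 20 ethanol-treated mice lay above every control. Ppp1cc, the gamma isoform enriched in dendritic spines, changed by 0.09 ± 0.06 (adjusted p = 0.282, limma), with an interval from -0.03 to 0.20.

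Of 13 tested probes for regulatory subunits of PP1, 3 fell and 0 rose over all arrays at an FDR below 10%, beside 13.5% and 11.9% of all probes, and the median change was -0.04. With median scaling none of the 3 falls was called. The clearest was Ppp1r10, which encodes the nuclear targeting subunit PNUTS. At its probe at base 3892, ethanol-treated mice ran from 8.40 through 8.80 to 9.34 and controls from 8.65 through 9.11 to 9.45, and 1 of 20 ethanol-treated mice lay above the control median. The change was -0.27 ± 0.08 (adjusted p = 0.0122, limma). On chip 3 the ethanol-treated values were 8.68, 9.04, 8.56 and 8.99 and the control values 8.97, 9.25, 9.26 and 9.45, which overlap in a narrow range. That within-chip difference of -0.42 ± 0.11 passed an FDR of 10% (adjusted p = 0.0327, limma), and the other chips gave -0.20 ± 0.09 (adjusted p = 0.107).

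Ppp1r13b, the p53-binding protein ASPP1, changed by -0.20 ± 0.07 over all arrays (adjusted p = 0.0443), by -0.33 ± 0.11 on chip 3 (adjusted p = 0.0622) and by -0.12 ± 0.08 on the other chips (adjusted p = 0.272, limma throughout). Ppp1r16a, a membrane-bound member of the myosin phosphatase targeting family, changed by -0.16 ± 0.05 (adjusted p = 0.0384, limma), with similar values of -0.18 ± 0.10 on chip 3 and -0.15 ± 0.06 elsewhere. The other tested PP1 regulators had changes over all arrays from -0.10 (Ppp1r14a, the inhibitor CPI-17) to 0.06 (Ppp1r8, a nuclear inhibitor), and none was called. They include the spine proteins neurabin (Ppp1r9a, 0.04 ± 0.04) and spinophilin (Ppp1r9b, -0.07 ± 0.04), and the inhibitors Ppp1r1a, Ppp1r2 and Ppp1r11.

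Ppp1r3c, which brings PP1 to glycogen, was not called over all arrays (0.04 ± 0.05, adjusted p = 0.616, limma), while chip 3 gave a called difference. Its ethanol-treated mice there read 10.77, 10.64, 10.83 and 10.78 and the controls 10.24, 10.57, 10.22 and 10.57. Every ethanol-treated mouse of that chip lay above every control. The change there was 0.36 ± 0.09 (adjusted p = 0.0243, limma), and it was -0.08 ± 0.05 on the other chips (adjusted p = 0.241).

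The PP2A catalytic subunits did not pass the test: Ppp2ca changed by 0.05 ± 0.03 with an interval from -0.01 to 0.11, and Ppp2cb by 0.00 ± 0.06 with an interval from -0.12 to 0.12 (limma, 20 and 12 mice). The scaffold Ppp2r1a, on which the PP2A holoenzyme is built, changed by 0.05 ± 0.07 over all arrays (adjusted p = 0.663, limma). Its 4 controls on chip 3 read 12.51, 12.42, 12.30 and 12.24, above all 4 ethanol-treated mice at 12.09, 11.92, 12.15 and 12.02. On chip 4 the controls ran from 11.57 through 11.93 to 12.05 and the ethanol-treated mice of chips 1 and 2 from 11.92 through 12.07 to 12.33, so that 4 of 8 of these controls lay below every one of them. Both differences passed an FDR of 10% in opposite directions, at -0.32 ± 0.08 on chip 3 (adjusted p = 0.0207) and 0.23 ± 0.06 elsewhere (adjusted p = 0.00867, limma).

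Of the 14 tested probes for variable PP2A subunits, 2 rose and 3 fell over all arrays at an FDR below 10%. Of all tested probes, 11.9% were higher and 13.5% lower at this rate. Ppp2r2c, the brain subunit B gamma, fell at its probe at base 3606, where ethanol-treated mice ran from 10.19 through 10.54 to 10.82 and controls from 10.57 through 10.69 to 10.96. In 14 of 20 ethanol-treated mice the value lay below every control. The change was -0.23 ± 0.05 (adjusted p = 0.00313, limma). Within chip 3 the values were 10.59, 10.48, 10.54 and 10.54 in ethanol-treated mice and 10.66, 10.96, 10.77 and 10.85 in controls. The groups did not overlap, at -0.27 ± 0.08 (adjusted p = 0.0365), and the other chips gave -0.20 ± 0.07 (adjusted p = 0.0318, limma).

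Ppp2r5d, a B56 subunit abundant in neurons, fell by 0.16 ± 0.05 on the log2 scale at base 2617 (adjusted p = 0.0221, limma), where 12 of 20 ethanol-treated mice lay below all controls. The change at base 2617 was -0.10 on chip 3 and -0.20 on the other chips, where chip and treatment coincide. The Ppp2r5d probe at base 2450 changed by -0.08 ± 0.06 over all arrays (adjusted p = 0.336, limma). Ppp2r5b, another B56 subunit, changed by -0.13 ± 0.06 over all arrays (adjusted p = 0.0934, limma), a call lost without control mouse 66 (adjusted p = 0.159). On chip 3 it was lower in every ethanol-treated mouse (8.36, 8.21, 8.32 and 8.48) than in every control (8.57, 8.83, 8.52 and 8.67). The risers were Ppp2r3c, a calcium-binding subunit, at 0.19 ± 0.07 (adjusted p = 0.0446), and the neuronal subunit Ppp2r2b at base 139, at 0.19 ± 0.07 (adjusted p = 0.0618, limma). Neither rose on chip 3, where they changed by -0.00 ± 0.08 and -0.04 ± 0.07.

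Ppp2r5c, a B56 subunit, changed by 0.09 ± 0.09 over all arrays at base 671 (adjusted p = 0.523, limma), yet it was the 1 phosphatase probe called at an FDR below 1% on chip 3. There the ethanol-treated mice read 10.46, 10.41, 10.58 and 10.54 and the controls 10.82, 10.92, 10.85 and 10.80. The groups were separate, at -0.35 ± 0.07 (adjusted p = 0.00705, limma). On the other chips the ethanol-treated mice ran from 10.13 through 10.53 to 10.74 and the controls of chip 4 from 9.80 through 10.19 to 10.43, a difference of 0.31 ± 0.08 in the opposite direction (adjusted p = 0.0054, limma). The activator Ppp2r4, the subunit Ppp2r2d and both Ppp2r5e probes changed by between -0.00 and 0.11 over all arrays and were not called.

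Calcineurin was represented by 3 catalytic genes and the regulatory subunit Ppp3r1. Ppp3ca, the main catalytic isoform of neurons, rose at 2 of its 3 probes over all arrays. The probe at base 254 was near background: it was detected on 20 of 20 ethanol arrays but on 7 of 12 control arrays, so that it passed the filter through the group in which it was higher. At base 254, ethanol-treated mice ran from 7.42 through 7.66 to 7.96 and controls from 7.13 through 7.37 to 7.76. All 20 ethanol-treated mice lay above the control median, and 7 of 12 controls lay below every ethanol-treated mouse. The changes were 0.25 ± 0.06 at base 254 (adjusted p = 0.0027), 0.19 ± 0.07 at base 1708 (adjusted p = 0.0438) and 0.12 ± 0.06 at base 1930 (adjusted p = 0.175, limma). Within chip 3 the probe at base 254 read 7.73, 7.47, 7.63 and 7.74 in ethanol-treated mice and 7.476, 7.764, 7.691 and 7.604 in controls, which overlap throughout, at 0.01 ± 0.08 (adjusted p = 0.963, limma). Ppp3cb changed by -0.00 ± 0.03, Ppp3cc, the isoform best known from testis, by 0.06 ± 0.06, and Ppp3r1 by 0.02 ± 0.06, and none was called.

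PP4 and PP5 subunits that were called had risen, and PP6 fell. The PP4 catalytic subunit Ppp4c changed by -0.03 ± 0.06 (adjusted p = 0.799, limma). Of 5 tested probes of its regulatory subunits, from 2 genes, 4 rose at an FDR below 10%, beside 11.9% of all probes. These were Ppp4r4 at bases 2836 and 3370 (0.16 ± 0.05 and 0.15 ± 0.05, adjusted p = 0.0214 and 0.0467) and Ppp4r1 at bases 1631 and 2610 (0.15 ± 0.06 and 0.12 ± 0.04, adjusted p = 0.0597 and 0.0467, limma). On chip 3, Ppp4r4 at base 3370 read 8.79, 8.42, 8.69 and 8.67 in ethanol-treated mice and 8.45, 8.02, 8.27 and 8.53 in controls, with 1 ethanol-treated mouse inside the control range. The change there was 0.32 ± 0.11 (adjusted p = 0.0673, limma), and 0.07 ± 0.05 on the other chips. The probe at base 2836 gave the reverse picture, with -0.11 ± 0.07 on chip 3 and 0.29 ± 0.05 on the others (adjusted p = 0.000115, limma).

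Ppp5c, which encodes PP5, a phosphatase that binds the chaperone Hsp90, rose by 0.23 ± 0.07 at base 1347 (adjusted p = 0.0149, limma) and changed by 0.03 ± 0.06 at base 1924 (adjusted p = 0.802). At base 1347, 9 of 20 ethanol-treated mice lay above every control over all arrays, but on chip 3 the change was -0.06 ± 0.08. Ppp6c, the catalytic subunit of PP6, ran from 9.63 through 9.86 to 10.05 in ethanol-treated mice and from 9.80 through 9.95 to 10.18 in controls. It was below every control in 8 of 20 ethanol-treated mice, and changed by -0.13 ± 0.04 (adjusted p = 0.0315, limma). Its change within chip 3 was -0.02 ± 0.07.

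The Ppm1 genes gave 15 tested probes of 9 genes. At an FDR below 10% over all arrays 6 of the probes rose and 1 fell, where 11.9% of all probes were higher and 13.5% lower. Ppm1a, or PP2C alpha, which acts on stress-activated kinases and Smad proteins, rose at its probe at base 741. Ethanol-treated mice ran from 9.91 through 10.16 to 10.47 and controls from 9.45 through 9.86 to 10.33, and all 20 ethanol-treated mice lay above the control median. The change was 0.30 ± 0.07 (adjusted p = 0.00406, limma). Within chip 3 the ethanol-treated mice read 10.28, 10.10, 10.04 and 10.13 and the controls 10.33, 10.20, 10.20 and 10.17, an overlapping and mostly lower set (-0.09 ± 0.07, adjusted p = 0.485, limma). The 8 controls of chip 4 ran from 9.45 to 9.92, below all but 1 of the ethanol-treated mice of chips 1 and 2, which ran from 9.91 to 10.47.

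Ppm1e, a nuclear phosphatase that acts on PAK and CaM kinases, rose at both probes, by 0.27 ± 0.07 at base 5996 (adjusted p = 0.00638) and by 0.13 ± 0.05 at base 6064 (adjusted p = 0.0448, limma). The changes were 0.39 ± 0.08 and 0.19 ± 0.06 on the other chips and 0.04 ± 0.11 and -0.01 ± 0.07 on chip 3. Ppm1l, an endoplasmic reticulum phosphatase, rose by 0.18 ± 0.07 at base 3299 (adjusted p = 0.0857) and by 0.25 ± 0.09 at base 3563 (adjusted p = 0.0542, limma). The first of these calls was lost without control mouse 66 (adjusted p = 0.164). The changes of Ppm1l at bases 3299 and 3563 were -0.09 and 0.07 on chip 3 and 0.27 and 0.31 on the other chips. Between ethanol-treated mice, chip 1 minus chip 2 was -0.23 and -0.36 at these bases.

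Ppm1k and Ppm1m had like values in both sets of chips. Ppm1k, the mitochondrial phosphatase that activates the breakdown of branched-chain amino acids, ran from 11.16 through 11.40 to 11.54 in ethanol-treated mice and from 10.84 through 11.28 to 11.41 in controls. The chip 3 values were 11.42, 11.38, 11.30 and 11.47 in ethanol-treated mice, above the controls at 11.29, 11.28, 11.23 and 11.02. The change was 0.19 ± 0.05 over all arrays (adjusted p = 0.00573), 0.19 ± 0.08 on chip 3 (adjusted p = 0.134) and 0.19 ± 0.06 elsewhere (adjusted p = 0.0251, limma). Ppm1m ran from 8.30 through 8.59 to 8.90 in ethanol-treated mice and from 8.60 through 8.76 to 9.01 in controls. On chip 3 its values of 8.67, 8.66, 8.60 and 8.64 in ethanol-treated mice lay below those of the controls, 8.75, 8.77, 8.80 and 8.94. The change was -0.18 ± 0.05 over all arrays (adjusted p = 0.00799), -0.17 ± 0.07 on chip 3 (adjusted p = 0.128) and -0.17 ± 0.06 elsewhere (adjusted p = 0.0426, limma).

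The remaining Ppm1 genes were not called over all arrays. Ppm1b, a close relative of Ppm1a, changed by 0.02 ± 0.04 and -0.01 ± 0.04 at its probes, Ppm1d, a target of p53, by 0.04 ± 0.04, Ppm1f, a CaM kinase phosphatase, by 0.02 ± 0.05 and 0.08 ± 0.04, and Ppm1g by 0.00 ± 0.07. Ppm1f at base 4706 and Ppm1g passed an FDR of 10% on chip 3, in opposite directions (0.22 ± 0.08, adjusted p = 0.08, and -0.30 ± 0.08, adjusted p = 0.0244, limma).

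**Figure D2:**
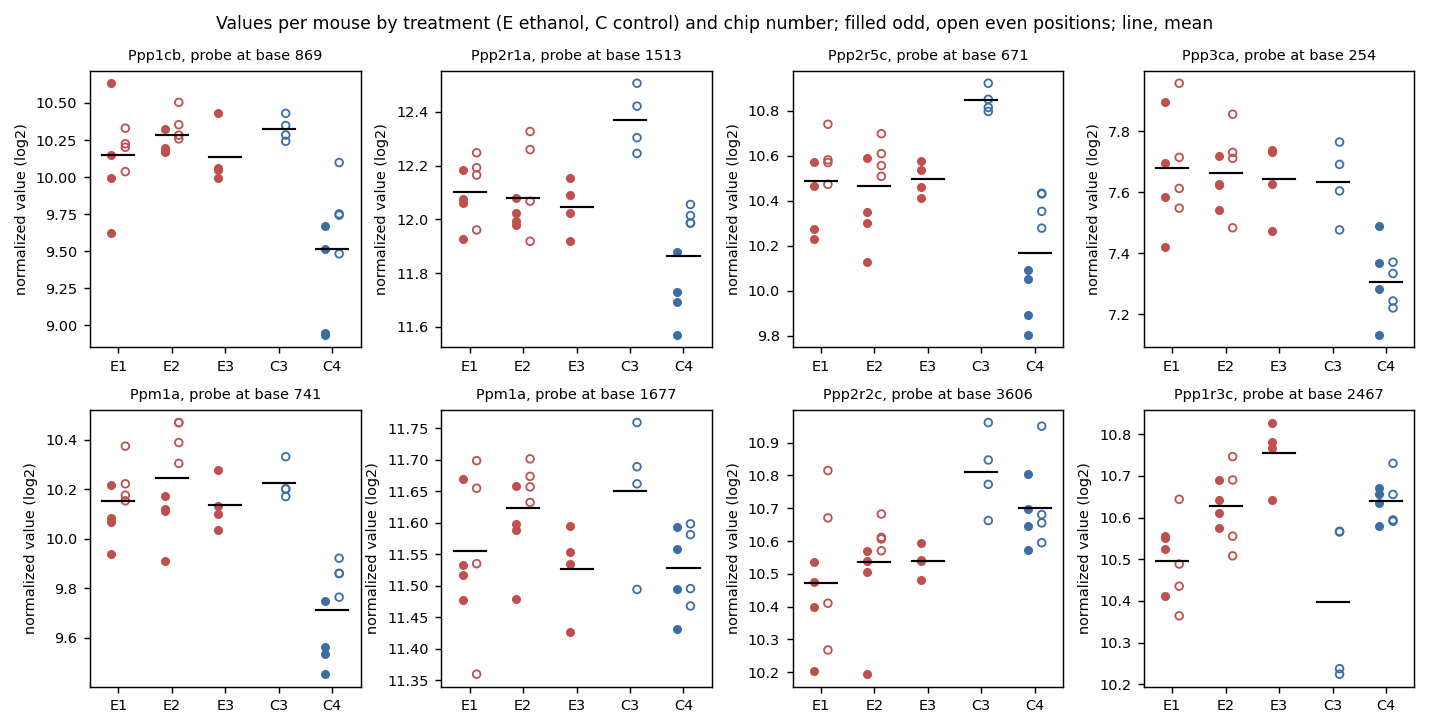
Each point is the normalized log2 value of 1 mouse for 8 phosphatase probes, by treatment and chip (E1 to E3, ethanol-treated on chips 1 to 3, and C3 and C4, controls on chips 3 and 4), with filled points at odd and open points at even positions and a line at the mean. For Ppp1cb, Ppp2r1a, Ppp2r5c and Ppm1a (741) the chip 4 controls have the lowest mean of the 5 sets, and for Ppp1cb, Ppp2r1a and Ppp2r5c the chip 3 controls have the highest. For Ppp2r2c (3606) all 3 ethanol sets have lower means than both control sets.

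The comparison was repeated in 2 sets of arrays that share none, chip 3 alone and chips 1 and 2 against chip 4. On chip 3, 11 members passed an FDR of 10% (4 higher and 7 lower, limma), which is 16.7% of those tested beside 15.4% of all probes (7.5% higher and 7.93% lower), and 1 passed 1% beside 2.52%. The 11 became 6 without ethanol-treated mouse 49, and also 6 without control mouse 54, with the shares of all probes in these fits not given here. On the other chips, 19 members were higher and 5 lower at 10%, where 31.8% of all probes were called (15% higher and 16.7% lower), and at 1% 12 were higher and 0 lower, beside 11.4% (5.78% and 5.63%). The 19 higher probes belonged to 13 genes, the 5 lower to 5 genes and the 12 to 10 genes.

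Members moved in the same direction in both sets in 36 of 66 cases (54.5%), and all tested probes did so in 50.9%. Of the 19 members that were higher on chips 1 and 2, 7 (36.8%) were also above 0 on chip 3, where all probes of that kind had 50%. All 5 that were lower stayed below 0, where all probes had 53.4%. The difference between both effects, chip 3 minus the others, passed an FDR of 10% in 14 members (2 above 0 and 12 below, limma), against 15.7% of all probes (7.95% above and 7.74% below). At 1% it passed in 6, beside 3.01% (1.53% above and 1.48% below): Ppp1cb at base 869 (-0.89 ± 0.20, adjusted p = 0.00486), Ppp2r5c at base 671 (-0.66 ± 0.14, 0.0035), Ppm1a at base 741 (-0.58 ± 0.12, 0.00369), Ppp2r1a (-0.55 ± 0.11, 0.00277), Ppp4r4 at base 2836 (-0.41 ± 0.09, 0.00398) and Ppp1r3c (0.43 ± 0.09, 0.00247).

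**Figure D3:**
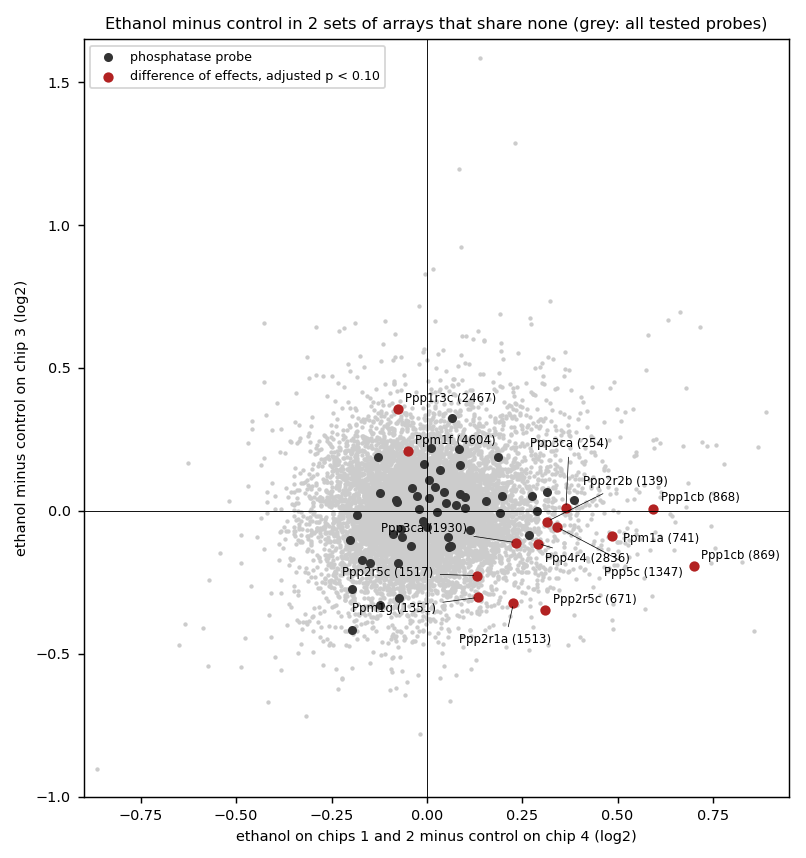
Each point is a tested probe, with the log2 difference between ethanol-treated mice on chips 1 and 2 and controls on chip 4 on the horizontal axis and that within chip 3 on the vertical axis (grey, all 10187 probes; dark, 66 phosphatase probes; red, members whose effects differ at an FDR below 10%). Of the 14 red points, 12 have a change on chip 3 that is lower, sign included, than on the other chips, with Ppp1cb (869) farthest at 0.70 and -0.19. Some of these reverse in sign without being smaller in size, such as Ppp2r1a at 0.23 and -0.32.

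Comparisons in which treatment did not vary also called phosphatase probes. Controls of chip 3 against those of chip 4, which enter the comparisons above too, differed in 18 members at an FDR below 10% (15 higher and 3 lower on chip 3, limma), beside 18.3% of all probes (9.44% and 8.82%). The 6 called at 1%, beside 3.2% (1.94% higher), were all higher on chip 3: the Ppp1cb probes at bases 868 and 869 (0.80 and 0.81), Ppp2r5c at base 671 (0.68), Ppm1a at base 741 (0.51), Ppp2r1a (0.51) and Ppp4r4 at base 2836 (0.34). Odd against even positions on chips 1, 2 and 4, with chip as a block, called 17 members at 10% (4 higher and 13 lower at odd positions), where 19.6% of all probes were called (9.97% and 9.61%). The 4 called at 1%, beside 2.75%, were Ppp2r5c at base 671 (-0.29), Ppm1a at base 741 (-0.25), Ppm1g (-0.25) and Ppp4c (0.24). Chip 1 against chip 2, both of ethanol-treated mice, called 2 members at 10% beside 1.5% of all probes: Ppp2r2b at base 1797 (0.36) and Ppp2r4 (0.25).

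With chip as a fixed block over all 32 arrays, which rests on chip 3 for the treatment effect, 5 members passed an FDR of 10% (limma; 6.05% of all probes). They were Ppp1r3c (0.36, adjusted p = 0.0144), Ppp4r4 at base 3370 (0.32, 0.0528), Ppp2r1a (-0.32, 0.065), Ppm1f at base 4706 (0.22, 0.0943) and Ppp1r10 at base 3892 (-0.42, 0.0943). None passed 1%, beside 0.0491% of all probes. With odd or even position added, 0 members passed 10% by limma, beside 0.0687% of all probes, and 6 had an unadjusted p under 0.05.

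Markers of other cells and regions also differed on chip 3. The mean level over a list of olfactory bulb genes, a region that the dissection was meant to leave out, ran from 8.64 to 9.001 in the ethanol-treated mice and from 7.70 to 8.47 in the controls, and 5 of its 7 tested probes were higher at an FDR below 10% by limma. That of oligodendrocyte genes ran from 10.09 to 10.30 in ethanol-treated mice and from 10.21 to 11.01 in controls, with 9 of 15 probes lower and 1 higher, a probe of Mbp (0.31, adjusted p = 0.0547, limma). Of 9 astrocyte probes, 3 were higher and 0 lower on chip 3. Of 10 microglia probes 0 were higher and 1 lower there, and of 4 striatum probes 0 and 1. Of all tested probes, 7.5% were higher and 7.93% lower on chip 3. Over all arrays, 0 of 7 olfactory bulb probes were called, and 1 of 15 oligodendrocyte probes was higher and 1 lower. Astrocyte probes gave 2 higher and 1 lower, microglia 0 and 1, and striatum 0 and 0, beside 11.9% and 13.5% of all probes. The choroid plexus list had 0 tested genes. The astrocyte marker Aqp4 changed by 0.58 over all arrays and by 0.61 on chip 3 (adjusted p = 0.000819 and 0.00553, limma). Markers of the cortex's own neurons differed too. Of 4 cortical excitatory neuron probes, 2 were lower over all arrays and on chip 3, those of Tbr1 and Slc17a7. Those of Cux2 and Neurod2 were not called. Tbr1, a transcription factor of these cells, changed by -0.36 over all arrays (adjusted p = 0.000349) and by -0.54 on chip 3 (adjusted p = 0.00851, limma). Of 6 probes of general neuron markers, 2 were higher and 1 lower over all arrays and on chip 3. Both probes of Gad1, which makes the transmitter GABA, were the higher ones (0.29 and 0.26 over all arrays). The lower one was again Slc17a7, the vesicular glutamate transporter of excitatory neurons, which is on both lists (-0.24 over all arrays and -0.44 on chip 3). The part of these markers in the phosphatase values was not tested.

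For genes with several tested probes, the change from control to ethanol-treated mice was compared between probes by taking the difference between both probes on each array. There were 25 such pairs in 17 genes. By permutation test (two-sided, 100000 resamples, Benjamini-Hochberg over the 25 pairs), 8 pairs differed at an adjusted p below 0.05, and 16 of 25 pairs had changes of the same sign. The test shuffled treatment over all arrays without regard to chip. Its p-values therefore do not separate treatment from chip, and differences between probes also shifted between the sets of controls (0.34 for Ppm1a). The median size of the difference was 0.08 on the log2 scale, with a range from 0.01 to 0.32. On chip 3 alone 0 pairs had an exact permutation p under 0.05, where the smallest p that the 70 splits allow is 0.0286, so that hardly any outcome could pass after adjustment.

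Among pairs that share no bases, Ppm1a had the largest difference. Its probe at base 741 rose by 0.30, whereas the overlapping probes at base 1677 changed by 0.01 ± 0.04 and -0.00 ± 0.05, and the differences of 0.29 and 0.30 had permutation adjusted p-values of 0.00225 and 0.00163. The annotation places both later probes at the same base, although their sequences are shifted by 1. Their first 30 bases are shown beside those of the upstream probe, with bases shared within the stretch in capitals.
Ppm1a probe at base 741: ccagttcatcatccttgcatgcgatggcat
Ppm1a probe at base 1677, first: aCCCAGGCTCATGGAAACTGTCTCTGTTCC
Ppm1a probe at base 1677, second: CCCAGGCTCATGGAAACTGTCTCTGTTCCg
The upstream probe lies on chromosome 12 at 73885409 to 73885458 and both later ones at 73895235 to 73895284, in the unnamed build of the array's annotation. On chip 3 the differences were 0.03 and 0.04 (exact permutation p = 0.8 and 0.657).

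Ppp2r2c disagreed although its probes share 33 of their 50 bases. The probe at base 3606 changed by -0.23 and that at base 3622 by 0.09 ± 0.05, a difference of -0.32 (permutation adjusted p = 0.00163). It was -0.32 on chip 3 (exact permutation p = 0.0571) and -0.30 on the other chips. The shared bases within the first 30 are in capitals.
Ppp2r2c probe at base 3606: cacccaggttcagagcgGACTGCTAATAAT
Ppp2r2c probe at base 3622: GACTGCTAATAATaatgtgtgtattgatcg
The same annotation puts them on chromosome 5, at 37345892 to 37345941 and 37345908 to 37345957. In the other 4 overlapping pairs, those of Ppm1a, Ppm1b, Ppp1ca and Ppp1cb, the probes differed by at most 0.04 over all arrays, and none differed by the test. On chip 3 the Ppp1cb probes differed by 0.20 (exact permutation p = 0.0571).

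Ppp1r10 fell at base 3892 but not at base 4061 (-0.02 ± 0.05), a difference of -0.25 (permutation adjusted p = 0.00338), and it was -0.36 on chip 3. In Ppp1ca the probe at base 139 exceeded those at bases 1072 and 1078 by 0.16 and 0.15 (permutation adjusted p = 0.01 and 0.0154), with 0.22 and 0.13 on chip 3. In Ppp4r1 the probe at base 2550 (-0.06 ± 0.05) lay below its neighbours at bases 1631 and 2610, by 0.21 and 0.19 in size (permutation adjusted p = 0.0165 and 0.0046).

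The probes of Ppp3ca, Ppm1e, Ppm1l, Ppp4r4 and Ppp2r5d had changes of 1 sign within each gene over all arrays, and no pair of them differed by the test. In Ppp3ca the differences were 0.06, 0.13 and 0.06 (permutation adjusted p = 0.616, 0.167 and 0.502). Ppp4r4 had nearly equal changes over all arrays (a difference of 0.02) that came from different arrays: the difference was -0.44 on chip 3 (exact permutation p = 0.0571) and 0.22 on the other chips. The differences for Ppp5c and Ppm1e, 0.20 and 0.14, had permutation p-values of 0.0446 and 0.0396 before and 0.111 and 0.11 after adjustment. The pairs of Ppm1f, Ppp2r2b, Ppp2r5c and Ppp2r5e differed by between 0.06 and 0.15 in size and did not pass.

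**Figure D4:**
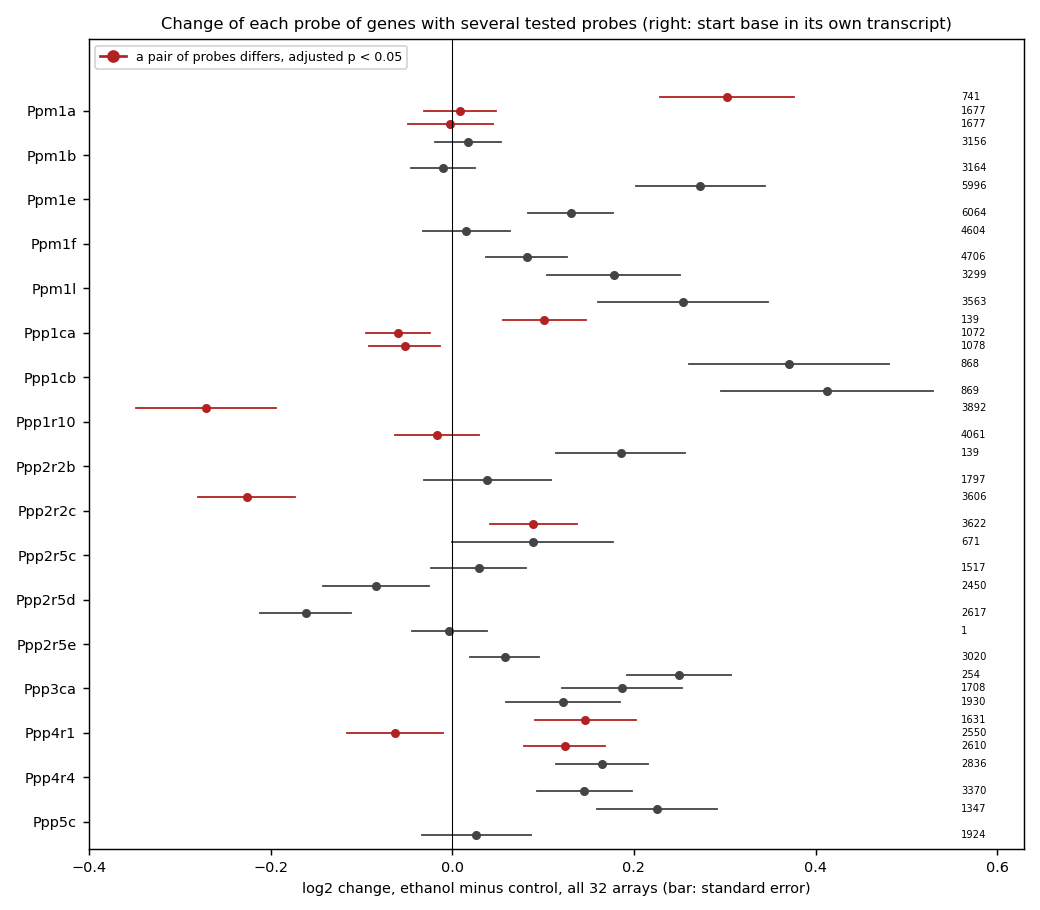
Each row holds a gene with several tested probes, and each point is the log2 change of 1 probe over all 32 arrays with its standard error, with the probe's first base at the right. Red marks the genes in which at least 1 pair of probes differs at an adjusted p below 0.05, namely Ppm1a, Ppp1ca, Ppp1r10, Ppp2r2c and Ppp4r1.

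In 9 phosphatase genes the most upstream and the most downstream tested probes lie on the same transcript at least 200 bases apart. This comparison was chosen after the values of single probes had been seen, and is given without a test. Over all arrays the upstream probe changed more toward ethanol in 7 of 9 genes (77.8%), and in 61.4% of the 1064 genes of the array with such probes. On chips 1 and 2 against chip 4 it was 7 of 9, with a median difference of 0.17 (69.9% and 0.09 for all genes). On chip 3 it was 4 of 9, with a median of -0.12 (39.4% and -0.05).

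The upstream probe was also higher in 8 of 9 genes in chip 3 controls against chip 4 controls (88.9%, against 75.8% of all genes), where treatment does not vary and whose arrays enter the other comparisons. It was higher at odd than at even positions in 1 of 9 genes (11.1%, against 27.1%), and on chip 1 against chip 2 in 5 of 9 (55.6%, against 42.6%). By gene, Ppp2r5c and Ppm1a had upstream minus downstream differences of 0.45 and 0.34 between the sets of controls, and Ppp4r4 had 0.54.

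**Figure D5:**
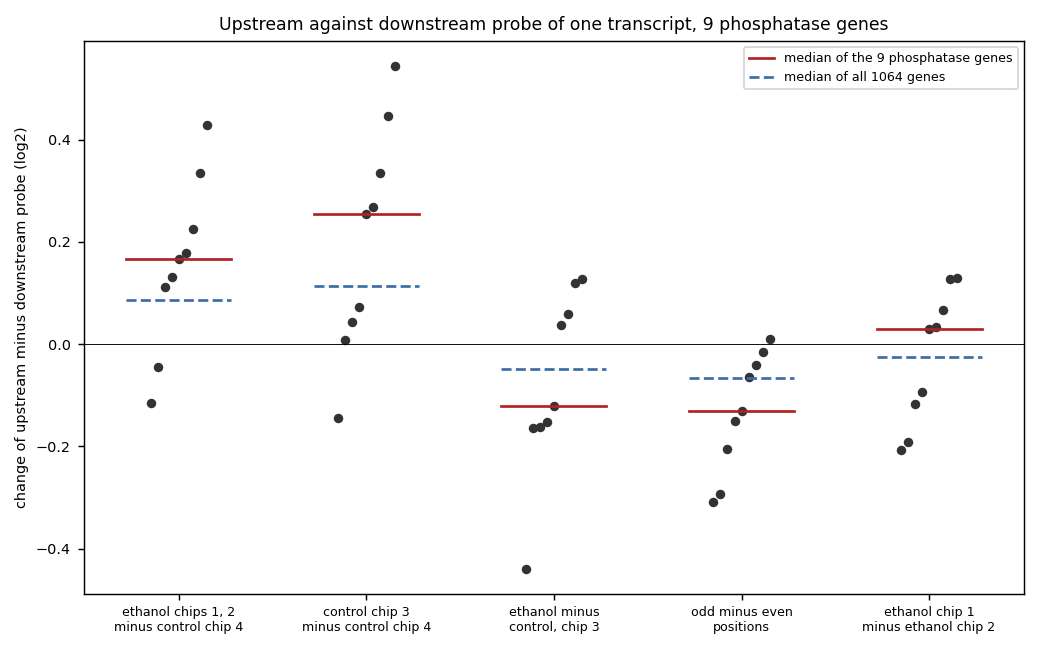
The points are the change of the upstream minus that of the downstream probe (log2) in each of 9 phosphatase genes, for 5 comparisons of arrays, with their median (solid red) and the median of all 1064 genes (dashed blue). The medians lie above 0 where arrays are set against chip 4 (0.17 and 0.25) and below 0 on chip 3 (-0.12) and for odd against even positions (-0.13).

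Partners of these phosphatases whose symbols the rule did not cover were described from lists of known binding proteins, regulators and substrates. Of the tested PP1 partners, 2 of 10 probes were higher and 1 lower over all arrays at an FDR below 10% by limma, where 11.9% of all probes were higher and 13.5% lower. Phactr1, an actin- and PP1-binding protein of neurons, had the largest change of these, 0.67 ± 0.10 at 1 probe (adjusted p = 2.57e-05), with 0.70 ± 0.12 on chip 3 and 0.66 ± 0.12 elsewhere, and -0.02 ± 0.04 at its other probe. The scaffold Iqgap1 changed by 0.23 ± 0.06 (adjusted p = 0.01) and the GTPase Mras by -0.14 ± 0.06 (adjusted p = 0.0615).

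Of 18 probes for PP2A and PP4 partners, 2 were higher and 2 lower, a share below the 25.4% of all probes called. Smek2, a regulatory subunit of PP4, changed at 1 probe by 0.26 ± 0.09 over all arrays (adjusted p = 0.0484) and by 0.33 ± 0.09 on chip 3 (adjusted p = 0.0323, limma). Its other probe was not called over all arrays (0.18 ± 0.08, adjusted p = 0.13) and changed by 0.39 ± 0.10 on chip 3 (adjusted p = 0.0279, limma). Mobkl3, a member of the striatin complex of PP2A, changed by 0.21 ± 0.06, and the PP2A inhibitor Anp32a by -0.28 ± 0.07 and -0.20 ± 0.08 at 2 of its 3 probes. Saps1, a regulatory subunit of PP6, changed by -0.23 ± 0.05 over all arrays (adjusted p = 0.00263), -0.34 ± 0.08 on chip 3 and -0.19 ± 0.07 elsewhere, and was the 1 call among 3 probes of PP6 partners. Of 11 probes for calcineurin regulators and substrates only the CREB coactivator Crtc1 was called over all arrays (-0.23 ± 0.06, adjusted p = 0.00745). Among 6 probes of other phosphatases of these types and their partners, Map3k7ip1, a regulator of the kinase TAK1, was lower at 1 probe (-0.23 ± 0.06, adjusted p = 0.00528, limma) and had 0.06 ± 0.06 at its other (adjusted p = 0.462).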

How the data were processed

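Per the labels and the Methods, RNA of each mouse's FCtx was hybridized to Illumina MouseRef-8 v2.0 BeadChips. The authors deposited a bead summary that is not normalized: the mean intensity of each probe on a linear scale, a detection p-value, and 2 other kinds of value for each probe, its standard error across beads and how many beads read it. Its software and background step are not given in the sources used here. The Methods name lumi and limma without versions. From the intensities, a variance-stabilizing transform after that of lumi and quantile normalization were computed anew in R 4.3.3 with the package data.table (1.17.8). A probe was kept if 24 or more of the 32 arrays gave it a detection p-value under 0.01. Kept probes were tested by limma 3.58.1 without covariates, with the Benjamini-Hochberg adjustment taken over them all. Changes are on the transformed scale, which is near log2. Pairs of probes were tested by permutation in Python 3.11.15 (numpy 2.4.6, scipy 1.17.1, pandas 2.3.3, matplotlib 3.10.9).

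Every column was matched to its mouse by label, and 0 were left over. The mice are separate animals, and none of their columns were identical. Of the 60 symbols, 58 were current in RefSeq. Named with values were all tested catalytic subunits and Ppm1 genes, regulatory subunits called over all arrays, genes with several tested probes, and flagged members. The members and lists were chosen with earlier results of these data known. Data were also simulated with independent noise and no chip or position effects. In these, a log2 change of 0.3 was found in 95% of 200 probes over all arrays and in 1% on chip 3 alone. A change of 0.5 was found in 99.5% and 88.5%. These shares do not carry over to the real arrays, where chip largely coincides with treatment. The alternatives were log2 signal, normexp background (offset 16), median scaling, other filters, chip and position terms, array weights and leaving out arrays.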

Additional observations from a re-analysis of the deposited data

Results flagged for a closer look

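In 6 members the ethanol effect on chip 3 differed from that on the other chips at an FDR below 1% (limma, test of the difference). The difference on the log2 scale was -0.89 for Ppp1cb at base 869, -0.66 for Ppp2r5c at base 671, -0.58 for Ppm1a at base 741, -0.55 for Ppp2r1a, -0.41 for Ppp4r4 at base 2836 and 0.43 for Ppp1r3c.

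In 3 of 70 groups of mice looked at, 1 mouse stood apart from the rest of its group by Dixon's criterion, which chance meets in about 1 of 20 groups. Ethanol-treated mouse 50 read 10.43 for Ppp1cb at base 869, with the nearest of the 4 ethanol-treated mice of chip 3 at 10.06. Ethanol-treated mouse 21 read 12.24 for Ppp3ca at base 1930, with the nearest of the 8 ethanol-treated mice of chip 1 at 12.01. Control mouse 55 read 9.61 for Ppp5c at base 1347, with the nearest of the 4 controls of chip 3 at 9.49.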

How the results depend on the processing

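Of the 25 members called at an FDR below 10% over all arrays, between 21 and 25 remained called with log2 signal, normexp background, either filter, array weights, position A to H or without control mouse 66 (24 of 24 that passed the stricter filter), 13 with median scaling, 7 with chip as a random block, 2 with chip as a fixed block and 0 with odd or even position added. No paired analysis was possible because the groups share no replicate (mouse) numbers.

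For 17 higher, 8 lower and 6 called at 1%, the counts were 3, 2 and 0 with the fixed block, 4, 3 and 0 with the random block, and 0, 0 and 0 with the fixed block and odd or even position. Median scaling gave 0 lower and 1 at 1%, and position A to H gave 11 at 1%. Median scaling also gave 0 lower on chips 1 and 2 against chip 4 (5 as reported) and 0 for odd against even (17). It moved the median change of all tested probes from -0.00 to 0.06 and that of the members from 0.04 to 0.11. Chip 3 alone gave 7 with normexp and 5 with the spread pooled over chips (11 as reported), and 6 to 13 when a mouse was left out. Among these settings, the share of all tested probes called is given above only for the fixed blocks. The other counts therefore do not compare the members with the whole array. Pairs of probes that differed numbered 0 on chip 3 alone (8 over all arrays), where 4 against 4 mice could hardly pass after adjustment.

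With the fixed block the sign turned in 24 of 66 members. Those called over all arrays or in that fit were Ppp1cb at base 869 (-0.19), Ppp2r1a (-0.32), Ppp4r4 at base 2836 (-0.11), Ppm1a at base 741 (-0.089), Ppm1l at base 3299 (-0.086), Ppp5c at base 1347 (-0.057), Ppp2r2b at base 139 (-0.037), Ppm1e at base 6064 (-0.0061) and Ppp2r3c (-0.0017). With odd or even position added it turned in 24, of which those called over all arrays were Ppp3ca at base 1708 (-0.15), Ppm1l (-0.13 and -0.11), Ppp4r4 at base 2836 (-0.066), Ppm1e at base 6064 (-0.0021) and Ppp6c (0.031). On chip 3 alone the Ppp4r1 difference between bases 1631 and 2550 was -0.011. The cause was not tested. The precision is limited by the number of arrays: 4 against 4 on chip 3, the only chip with both groups.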
